A study of Mus musculus with 4 samples.

Results

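General capillary endothelial cells are the more numerous of the endothelial cell types of the lung's alveolar capillary net, and they were examined here in single-cell RNA-seq of mouse lung. A cell was taken as a general capillary cell when it held at least 1 UMI of at least 3 of the 6 genes Gpihbp1, Plvap, Sema3c, Kit, Glp1r and Aplnr, together with at least 1 UMI of Cdh5 or Pecam1. It had to hold 0 UMIs of Cd3e, Cd79a and Ptprc, at most 1 detected gene of the aerocyte set Car4, Ednrb, Fibin and Apln, and at most 1 of the pericyte set Cox4i2, Higd1b, Notch3 and Trpc6. These conditions chose 3059 of 53463 kept cells, or 5.72%. A unique molecular identifier (UMI) stands for 1 captured RNA molecule, and a kept cell had at least 300 detected genes and at most 20% mitochondrial UMIs.

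The study compared lungs of mice carrying a gene edit of Galt (GAL, 2 libraries) with lungs of wild-type mice (WT, 2 libraries). Galt encodes the galactose-1-phosphate uridylyltransferase of the Leloir pathway of galactose use. All 4 libraries are of whole lung dispersed with collagenase IV and DNase I and captured in droplets with a SeekOne kit, with no treatment named for either group. The labels used here give no strain, age or sex of the mice, no description of the edit, and no number of mice per library, so the p-values below measure the spread between these libraries, which may be partly technical.

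The alveolar capillary wall holds a pair of endothelial cell types. Aerocytes are large, thin cells that face the air space, carry Car4 and receive VEGFA through KDR, while general capillary cells line the thicker side, serve as progenitors in repair, and carry the equipment for lipid uptake and for control of vascular tone. GPIHBP1 anchors lipoprotein lipase on the capillary lumen, PLVAP forms the diaphragms of caveolae and fenestrae, KIT is the receptor of stem cell factor, SEMA3C is a secreted semaphorin, GLP1R is the receptor of glucagon-like peptide 1, and APLNR is the receptor of apelin, which aerocytes produce.

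The deposited count matrices held 12275 and 12045 barcodes in the GAL libraries, against 14213 and 15583 in the WT libraries. Their total UMIs were 62406681 and 56218178 in GAL, against 61340929 and 58518235 in WT. Between 104 and 146 barcodes recurred in each pair of libraries, and among the general capillary cells 1 barcode was shared, between GAL replicate 2 and WT replicate 1. The median general capillary cell held 3334 and 2936 UMIs in the GAL libraries, against 2176 and 2670 UMIs in the WT libraries. More UMIs were thus counted per member in both GAL libraries, and shares of cells with a UMI are given below also after each cell was thinned to 1500 UMIs.

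The 6 genes used for selection, and all genes of the cells chosen by them, describe the selection and are not a finding. In CPM, the UMIs of a gene per 1000000 UMIs of the general capillary cells of a library, Gpihbp1 was at 1100 and 1153 in GAL, against 823 and 1127 in WT. Kit was at 218 and 307 CPM in GAL, against 397 and 264 CPM in WT, and Glp1r was at 223 and 372 CPM in GAL, against 293 and 305 CPM in WT. Aplnr was the gene of the set detected in the fewest members, in 10.2% and 18.7% of the GAL cells and in 14.97% and 12.5% of the WT cells. Gpihbp1 was detected in 94.9% and 92.8% of GAL members and in 85.7% and 93.9% of WT members, and in T cells, which should lack it, in 6.50% and 2.44% of GAL cells and 2.64% and 3.01% of WT cells. Most members passed with 3 or 4 of the 6 genes: 369 and 193 GAL cells and 260 and 278 WT cells held exactly 3. Cells that met every other condition with exactly 2 genes numbered 315 and 135 in GAL and 224 and 225 in WT. Just inside the threshold, in members with 3 genes, Gpihbp1 was at 993 and 974 CPM in GAL and at 735 and 1022 CPM in WT. Just outside it, in cells with 2 genes, Gpihbp1 was at 697 and 816 CPM in GAL and at 600.3 and 744 CPM in WT. Members with 3 genes also held more RNA of Vwf, which codes for von Willebrand factor of larger vessels, at 420 and 547 CPM in GAL and 321 and 287 CPM in WT, where all members together held 235 and 272 CPM in GAL and 264 and 206 CPM in WT.

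The label was checked against genes the selection did not use. Cd93, a C-type lectin receptor of endothelium, was detected in 94.9% and 93.7% of the GAL members and in 89.6% and 88.5% of the WT members, against 5.31% to 9.97% of GAL T cells and 4.83% to 6.38% of WT T cells. The 8 general capillary markers outside the selection summed to 4810 and 7018 CPM in GAL members and to 5431 and 5578 CPM in WT members, while aerocytes held between 2122 and 2229 CPM of them. The 10 aerocyte markers outside the selection summed to 1934 to 2547 CPM in the general capillary cells and to 12947 to 17940 CPM in aerocytes. Of the 8 general capillary markers 6 were higher and 1, Clec1a, was lower in general capillary cells than in aerocytes (-0.40 ± 0.11 log2, edgeR adjusted p = 0.0160), and Adgre5 did not pass (-0.23 ± 0.13 log2, edgeR adjusted p = 0.225). The call of Clec1a was lost without GAL replicate 1, WT replicate 1 or WT replicate 2 (edgeR adjusted p = 0.122, 0.0816 and 0.154), and without GAL replicate 2 Adgre5 passed as lower (edgeR adjusted p = 0.000858). Both marker sums ran with the label in all 4 libraries.

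General capillary cells made up 8.08% of the kept cells of GAL replicate 1 (95% Wilson interval 7.60% to 8.57%) and 5.84% of those of GAL replicate 2 (5.43% to 6.27%). They made up 4.34% of the kept cells of WT replicate 1 (4.01% to 4.69%) and 5.03% of those of WT replicate 2 (4.70% to 5.39%). Both GAL shares lay above both WT shares, with means of 6.96% ± 1.58 in GAL and 4.69% ± 0.491 in WT (SD, n = 2 each). An exact permutation test (two-sided) of 2 against 2 libraries cannot go below p = 0.333, the value it gave here, and the intervals cover counting error only. After thinning to 1500 UMIs the shares were 6.09% and 5.22% in GAL and 3.44% and 4.34% in WT. With at least 4 of the 6 genes required they were 5.04% and 4.21% in GAL and 2.48% and 3.23% in WT. With 0 UMIs of aerocyte and pericyte genes they were 4.31% and 3.39% in GAL and 3.13% and 3.18% in WT, and the difference of the means was 0.692 percentage points, against 2.27 in the selection as described. Among the endothelial cells assigned to a class, general capillary cells were 76.5% and 88.5% in GAL and 75.1% and 77.9% in WT, and these ranges overlapped. The other classes were small: 182 and 53 aerocytes in GAL and 118 and 138 in WT, and between 17 and 53 arterial and between 20 and 67 venous cells per library.

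**Figure D1:**
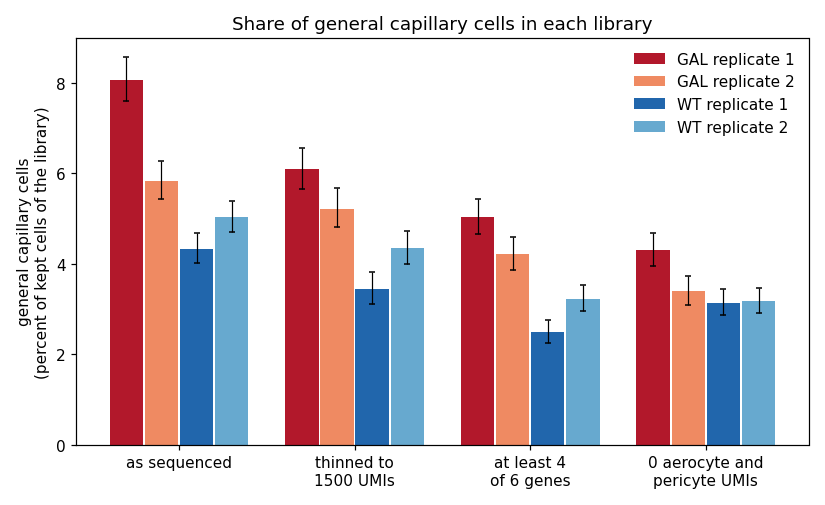
General capillary cells as a percentage of the kept cells of each library, as bars with 95% Wilson intervals, with the GAL libraries (red) left of the WT libraries (blue). The 4 sets of bars give the selection as sequenced, after thinning to 1500 UMIs, with at least 4 of the 6 genes, and with 0 UMIs of aerocyte and pericyte genes. Both GAL bars are above both WT bars in each set.

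Compared with aerocytes of the same libraries, general capillary cells differed in receptors, secreted factors and transcription factors that the selection had not used. The selection excluded no arterial or venous gene. Hey1, an arterial gene, was detected in 26.4% and 36.0% of GAL members and 19.9% and 24.4% of WT members. Arterial cells held Gpihbp1 at 702 and 1341 CPM in GAL and 828 and 806 CPM in WT. Whether arterial or venous cells share the differences below was not tested. UMIs were summed per library and cell class, and the library was a term of the edgeR quasi-likelihood fit. All 32 genes used to select general capillary cells, aerocytes, arterial or venous cells were left out. Of 8924 genes tested, 1351 (15.1%) were higher and 1111 (12.4%) were lower in general capillary cells at an adjusted p under 0.05, and 1619 in all passed after thinning to 1500 UMIs. The calls describe how the classes differ as selected, and genes whose RNA goes along with the selecting genes are favoured by the selection.

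The receptor phosphatase and kinase pair of the angiopoietin pathway was high in general capillary cells. Ptprb, the endothelial receptor phosphatase that restrains TEK, was at 1687, 2550, 2120 and 1911 CPM in general capillary cells of GAL replicates 1 and 2 and WT replicates 1 and 2, against 237, 216, 269 and 157 CPM in aerocytes of the same libraries. Tek, the angiopoietin receptor, was at 364, 472, 472 and 484 CPM in general capillary cells, against 68.6, 53.9, 65.5 and 40.6 CPM in aerocytes. All 4 libraries of either gene were higher in general capillary cells with no overlap of the classes, by 3.22 ± 0.14 log2 for Ptprb and 2.91 ± 0.17 log2 for Tek (SE, edgeR adjusted p = 2.6e-09 and 2.3e-08). Genes of the VEGF pathway differed in both directions, with 5 of 11 tested higher and 2 lower in general capillary cells. Kdr, the main signalling receptor of VEGFA, was at 163, 267, 296 and 254 CPM in general capillary cells, against 1547, 1955, 2326 and 2253 CPM in aerocytes, lower by -3.06 ± 0.10 log2 (edgeR adjusted p = 1.9e-10). Its co-receptor Nrp1 was lower by -2.06 ± 0.10 log2 (edgeR adjusted p = 5.4e-09). Flt1, another VEGFA receptor, was higher, at 740 and 831 CPM in GAL and 1074 and 865 CPM in WT general capillary cells, against 625 and 777 CPM in GAL and 806 and 678 CPM in WT aerocytes (0.28 ± 0.10 log2, edgeR adjusted p = 0.0474). Flt1 was named after its values were seen, and its call was lost without GAL replicate 1, WT replicate 1 or WT replicate 2 (edgeR adjusted p = 0.129, 0.2003 and 0.176). Flt4 did not pass (-0.50 ± 0.22 log2, edgeR adjusted p = 0.117). The ligands Vegfa and Vegfc were both higher in general capillary cells, Vegfa by 1.97 ± 0.28 log2 (edgeR adjusted p = 0.000121) with 206, 163, 328 and 339 CPM against 76.5, 85.4, 75.8 and 23.9 CPM in aerocytes.

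Of the genes of vascular tone and lipid handling, Edn1, Npr3, Ptgs1 and Lpl were higher in general capillary cells. Edn1, which codes for the vasoconstrictor endothelin 1, was at 236, 326, 273 and 237 CPM in general capillary cells, against 34.3, 22.5, 37.9 and 31.0 CPM in aerocytes, a difference of 2.99 ± 0.17 log2 (edgeR adjusted p = 1.5e-08). Npr3, the clearance receptor of natriuretic peptides, was higher by 3.40 ± 0.19 log2 (edgeR adjusted p = 1.9e-08), and Ptgs1, the constitutive cyclooxygenase of prostacyclin and prostaglandin synthesis, by 3.04 ± 0.31 log2 (edgeR adjusted p = 6.1e-06). Of 17 tested genes of vascular tone, 10 were higher and 2 lower in general capillary cells. Lpl, the lipase that GPIHBP1 holds on the capillary wall, was at 521, 592, 266 and 309 CPM in general capillary cells, against 92.3, 76.4, 41.4 and 26.2 CPM in aerocytes, higher by 2.83 ± 0.16 log2 (edgeR adjusted p = 1.9e-08). Cd36, a fatty acid transporter, was the member of the capillary lipid list that was lower, at 935, 1183, 988 and 1153 CPM in general capillary cells against 1289, 1119, 1561 and 1475 CPM in aerocytes (-0.35 ± 0.11 log2, edgeR adjusted p = 0.0332). The order of the classes for Cd36 held in 3 of the 4 libraries, and the call was lost without GAL replicate 1, WT replicate 1 or WT replicate 2 (edgeR adjusted p = 0.184, 0.243 and 0.146). Of the 10 tested members of the list, Lpl was thus the only higher one and Cd36 the only lower one.

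Secreted and signalling genes followed. Cxcl12, the chemokine ligand of CXCR4, was higher by 2.20 ± 0.16 log2, its scavenger receptor Ackr3 by 2.93 ± 0.27 log2, the growth factor Bmp6 by 2.27 ± 0.19 log2 and the Notch ligand Dll1 by 3.05 ± 0.24 log2 in general capillary cells (edgeR adjusted p = 1.8e-07, 2.4e-06, 7.7e-07 and 4.0e-07). Entpd1, the ectonucleotidase that breaks down the platelet agonist ADP, was higher by 2.65 ± 0.24 log2 (edgeR adjusted p = 1.5e-06). Of the transcription factors, Sox17 was higher by 2.46 ± 0.17 log2 and Foxp1 by 1.80 ± 0.12 log2, and Tbx3 was lower by -2.33 ± 0.12 log2 (edgeR adjusted p = 1.0e-07, 6.1e-08 and 5.5e-09). Iigp1, an interferon-induced GTPase, was at 1073, 391, 963 and 496 CPM in general capillary cells, against 162, 35.9, 103 and 33.4 CPM in aerocytes (3.18 ± 0.17 log2, edgeR adjusted p = 8.1e-09). Of 16 interferon-response genes tested, 10 were higher and 1 lower, and of 8 MHC class II genes 5 were higher and 0 lower. Iigp1 also differed between libraries within general capillary cells, with GAL replicate 1 and WT replicate 1 high and GAL replicate 2 and WT replicate 2 low, so that the groups overlapped. Of 17 immediate early genes, 14 were higher in general capillary cells, and of 27 cytosolic ribosomal protein genes 26 were higher, with a median of 0.62 log2. All 8 fibroblast markers were also higher in general capillary cells, which held 1855.5 and 1685 CPM of their sum in GAL and 1055 and 1073 CPM in WT, against 952 and 1085 CPM in GAL aerocytes and 647 and 519 CPM in WT aerocytes. The part of fibroblast RNA in the class difference was not tested.

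**Figure D2:**
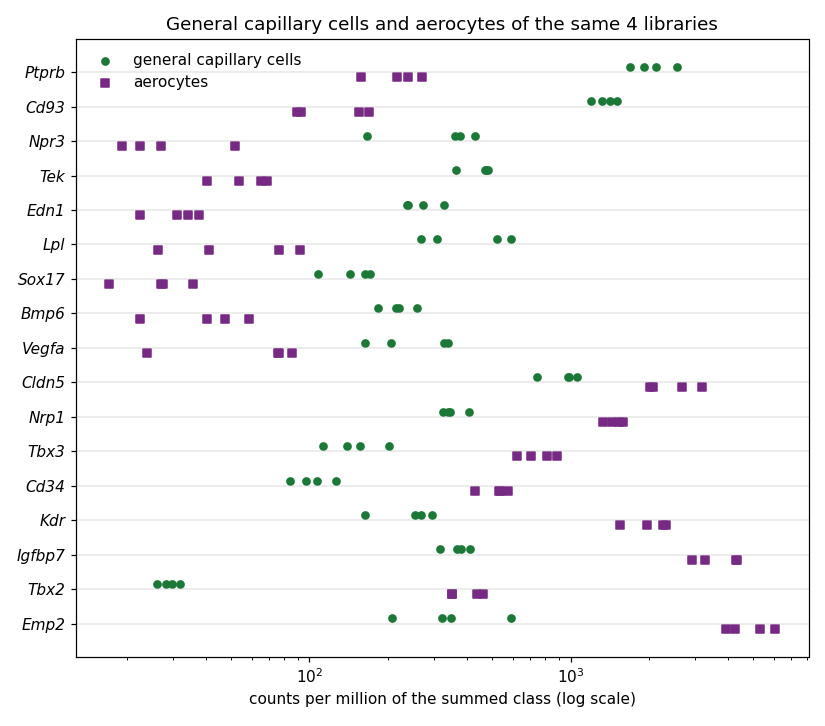
Levels of named genes in general capillary cells (circles) and aerocytes (squares), in CPM on a log axis, with 1 point per class and library. Genes from Ptprb to Vegfa lie higher in general capillary cells and those from Cldn5 to Emp2 lie lower, without overlap of the classes.

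The largest folds lay in genes with few UMIs in one of the classes. Gata3, a zinc-finger transcription factor, had 413 UMIs in general capillary cells and 2 in aerocytes, a ratio of CPM of 34.4 with a counting interval of 9.47 to 285. Tubb2b, a tubulin, had 266 and 1 UMIs and a ratio of 44.3 (7.89 to 1758), and Grp, which codes for gastrin-releasing peptide, had 237 and 2 UMIs and a ratio of 19.8 (5.41 to 164). Mmp3, a matrix metalloproteinase, had 245 and 1 UMIs with a ratio of 40.8 (7.26 to 1620). Few members held Mmp3: 3.47% and 2.02% in GAL and 1.97% and 1.03% in WT. In T cells the shares were 3.30% and 1.10% in GAL and 1.08% and 1.34% in WT. Gprin3 had 254 and 3 UMIs with a ratio of 14.1 (4.78 to 68.9), and the carbonic anhydrase gene Car14 had 427 and 4 UMIs with a ratio of 17.8 (6.90 to 65.6). Gata3 was detected in 9.68% and 16.7% of GAL members and 10.9% and 10.2% of WT members, and in T cells, which express it, in 14.0% and 19.2% of GAL cells and 17.2% and 11.9% of WT cells. On the other side Chst1, a keratan sulfate sulfotransferase, had 50 UMIs in general capillary cells and 430 in aerocytes, and was lower by -5.63 ± 0.18 log2 (edgeR adjusted p = 1.4e-10). Chst1 is 1 of the 10 aerocyte markers kept out of the selection, of which 9 were lower in general capillary cells. The others with large folds on that side were Slc5a12, a monocarboxylate transporter gene with 4 and 70 UMIs, Dpysl5 with 11 and 150 UMIs, the peptidase gene Xpnpep2 with 9 and 115 UMIs and Rbfox3 with 22 and 157 UMIs.

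Hemoglobin genes were the remaining 4 of the 10 largest folds, and they rested on a few cells. Hba-a1 had 5445 UMIs in general capillary cells and 48 in aerocytes, and Hbb-bs had 10426 and 81 UMIs. Members with at least 50 hemoglobin UMIs numbered 2 and 2 in the GAL libraries and 4 and 12 in the WT libraries, and held 94.7% and 69.7% of the hemoglobin UMIs of GAL members and 94.5% and 94.8% of those of WT members. No aerocyte held as many. Without those cells the 4 hemoglobin genes no longer passed, with Hba-a1 higher by 0.61 log2 (edgeR adjusted p = 0.128) and Hbb-bs by 0.44 log2 (edgeR adjusted p = 0.152), while 2464 genes passed in all, against 2462 with them. Dropping these cells was chosen after the data were seen.

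Between GAL and WT, the targeted gene comes first. Galt had 35 and 27 UMIs in the general capillary cells of the GAL libraries, against 10 and 16 UMIs in those of the WT libraries, or 9.53 and 11.4 CPM in GAL against 6.11 and 6.72 CPM in WT. The GAL libraries were above the WT libraries, with a difference of 0.68 ± 0.37 log2 that did not pass (edgeR unadjusted p = 0.0969). Galt was detected in 3.36% and 3.75% of GAL members and in 1.64% and 2.06% of WT members, near the 4.79% and 2.77% of GAL T cells and the 3.39% and 3.01% of WT T cells. In all other kept cells it was at 14.0 and 12.2 CPM in GAL and 13.3 and 12.2 CPM in WT. Since the edit is not described, a level of counted RNA does not check whether Galt is altered, and it is no check of the labels. Of 14 tested genes of the Leloir pathway and galactose metabolism 3 had a positive difference and the median was -0.11 log2, with Galk2, an N-acetylgalactosamine kinase, at 3.81 and 3.80 CPM in GAL against 8.55 and 6.72 CPM in WT (-0.98 ± 0.43 log2, edgeR unadjusted p = 0.0476).

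No gene passed an adjusted p under 0.05 between GAL and WT general capillary cells in edgeR's quasi-likelihood test, 0 of 10483 genes (0.0%). The 19 genes used to select these cells were left out. At an unadjusted p under 0.05, 323 genes (3.08%) were higher and 132 (1.26%) lower in GAL. DESeq2 called 2 genes (0.0191%), Zbtb16 and Mfap4. With no filter on low counts edgeR called 142, and with a library left out it called between 12 (without WT replicate 2) and 309 (without GAL replicate 2), where 1 group is a lone library whose spread is assumed. Both GAL libraries lay above both WT libraries for 16.1% of the genes and below both for 15.3%, which is the background for the counts of non-overlapping members below, and the median difference of all genes was -0.01 log2. Of all genes tested, 49.1% had a positive difference, which is the background for the counts of positive differences in the lists. Fewer cells with a transcript and less of it per cell cannot be told apart in such sums, and all values that follow are of genes that did not pass unless stated. Genes named below for a small p among all genes had to have a mean of at least 20 CPM and no overlap of the groups. Their lack of overlap was thus a condition of naming and adds no support.

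The smallest p belonged to Zbtb16, the zinc-finger transcription factor PLZF, known as a gene induced by glucocorticoids. Its level was 300 and 233 CPM in the GAL libraries, against 84.3 and 79.8 CPM in the WT libraries. The groups did not overlap, and the difference was 1.70 ± 0.21 log2 (edgeR adjusted p = 0.146). Zbtb16 was detected in 59.3% and 50% of GAL members and in 19.6% and 20.9% of WT members, and after thinning in 33.9% and 30.6% of GAL members and in 12.7% and 11.7% of WT members. T cells, whose subsets can express it, held a UMI in 14.5% and 6.98% of GAL cells and in 2.88% and 5.89% of WT cells, at median depths of 3604 and 3099 UMIs in GAL and 2327 and 2938 UMIs in WT. Aerocytes held 238 and 242 CPM of Zbtb16 in GAL against 111 and 114 CPM in WT, and all other kept cells 103 and 38.2 CPM in GAL against 14.1 and 19.4 CPM in WT. The change of general capillary cells minus that of the other cells was -0.25 ± 0.30 log2, with an edgeR unadjusted p of 0.413. Against aerocytes it was 0.63 ± 0.25 log2 (edgeR unadjusted p = 0.0274), which did not pass after adjustment. The difference between GAL and WT libraries was thus not shown to be particular to general capillary cells.

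The gene lists were chosen with earlier results of these data known, so their counts are a description and give no independent support. Zbtb16 stands in a list of 15 glucocorticoid-responsive genes, of which 14 were tested. Of these, 9 had a positive difference, 5 were higher in both GAL libraries, 0 were lower in both, and the median was 0.21 log2, or -0.11 log2 without GAL replicate 1. Fkbp5, the co-chaperone that dampens the glucocorticoid receptor, was at 37.3 and 24.5 CPM in GAL, against 6.11 and 8.82 CPM in WT (2.03 ± 0.33 log2, edgeR adjusted p = 0.368). Sult1a1, a phenol sulfotransferase, was at 97.8 and 70.1 CPM in GAL, against 25.7 and 34.4 CPM in WT (1.47 ± 0.25 log2, edgeR adjusted p = 0.368). Tsc22d3, the glucocorticoid-induced leucine zipper protein, was at 284 and 242 CPM in GAL, against 142 and 174 CPM in WT (0.73 ± 0.20 log2, edgeR adjusted p = 0.717). These 4 and Per1 were the members without overlap. Others of the list did not share the direction: Sgk1 and Mt1 had differences of -0.24 log2 each, Nr3c1, the receptor itself, -0.04 log2, and Cebpd -0.05 log2. Sult1a1 was detected in 27.7% and 20.3% of GAL members and 6.58% and 9.54% of WT members, against 5.07% and 1.58% of GAL T cells and 0.879% and 1.10% of WT T cells. Fkbp5 was detected in 12.1% and 7.93% of GAL members and 1.64% and 2.71% of WT members, and in 10.9% and 7.22% of GAL T cells and 7.07% and 5.61% of WT T cells.

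The 250 bases upstream of the RefSeq transcript starts of Sult1a1 and Fkbp5 (GRCm38.p6) are shown because both genes lay apart between the groups and carry different counts of the glucocorticoid receptor half-site. The Sult1a1 window is chr7:126676419-126676668 on the minus strand and the Fkbp5 window is chr17:28486150-28486399 on the minus strand. Capitals mark TGTTCT or its reverse complement AGAACA.
Sult1a1: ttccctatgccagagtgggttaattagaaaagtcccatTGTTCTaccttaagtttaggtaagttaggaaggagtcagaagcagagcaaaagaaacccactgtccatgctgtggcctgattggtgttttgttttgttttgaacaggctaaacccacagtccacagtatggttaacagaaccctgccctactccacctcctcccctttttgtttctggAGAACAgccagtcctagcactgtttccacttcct
Fkbp5: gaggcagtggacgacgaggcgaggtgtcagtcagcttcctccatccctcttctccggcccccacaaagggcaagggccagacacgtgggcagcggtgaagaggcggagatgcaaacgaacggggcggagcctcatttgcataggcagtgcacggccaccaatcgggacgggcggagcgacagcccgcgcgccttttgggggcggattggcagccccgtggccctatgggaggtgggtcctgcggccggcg
The Sult1a1 window held 2 half-sites and the Fkbp5 window 0. Of all 32851 windows in the table, 16.1% held at least 1, and of the 21 windows of the 12 list genes found there, 5 (23.8%) held at least 1. Windows of the same gene were counted separately, and several of these 5 belong to Sgk1, whose difference was -0.24 log2. A match of 6 letters is a description of the sequence, and its absence in this window says nothing about sites elsewhere.

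**Figure D3:**
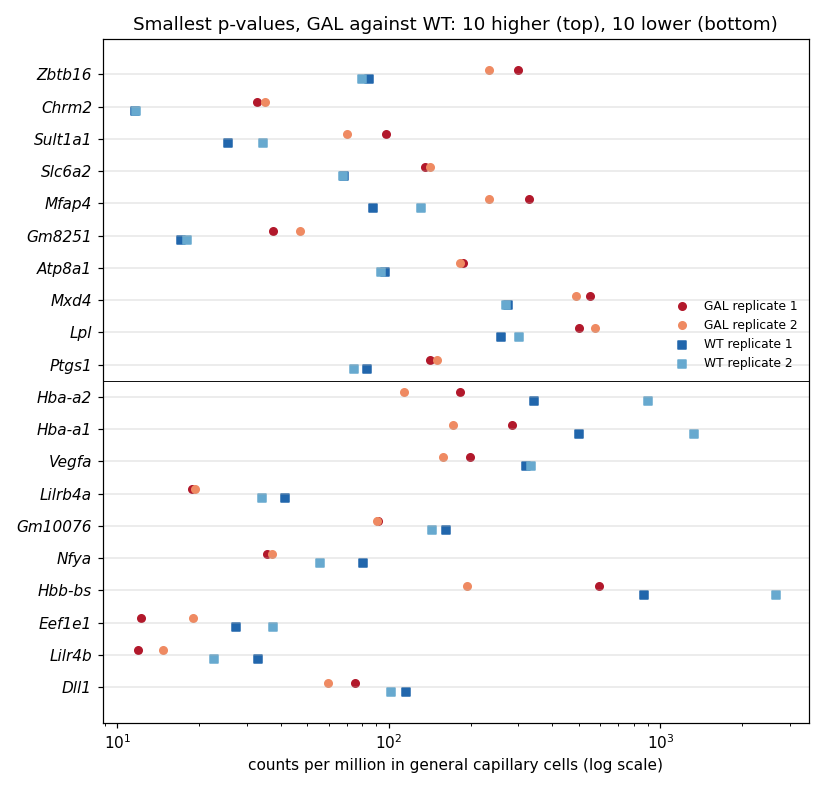
Levels in general capillary cells in CPM on a log axis, with 1 point per library, for GAL (circles) and WT (squares). The 20 genes are the 10 higher in GAL (above the line) and the 10 lower (below it) with the smallest p. They were taken among genes with a mean of at least 20 CPM and no overlap of the groups, so their separation was a condition of entry. Zbtb16 and Lpl lie higher in both GAL libraries and Vegfa lies lower, and none of the 20 passed the edgeR test.

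Genes of lipoprotein and lipid handling were among those with the smallest p. Lpl was at 503 and 577 CPM in GAL, against 260 and 303 CPM in WT. The groups did not overlap, and the difference was 0.94 ± 0.20 log2 (edgeR adjusted p = 0.628). It was detected in 69.1% and 73.6% of GAL members and in 40.6% and 49.6% of WT members, and after thinning in 49.1% and 53.8% of GAL members and in 30.1% and 32.7% of WT members. In T cells the shares were 10.4% and 7.46% in GAL and 9.78% and 7.23% in WT. In all other kept cells Lpl was at 382 and 405 CPM in GAL, against 436 and 437 CPM in WT, so that the change of general capillary cells minus that of the other cells was 1.08 ± 0.26 log2 (edgeR adjusted p = 0.381). In aerocytes, with lower levels, Lpl was at 92.1 and 76.1 CPM in GAL against 40.5 and 26.0 CPM in WT. The change of general capillary cells minus that of aerocytes was -0.49 ± 0.34 log2 (edgeR unadjusted p = 0.174). The difference in Lpl was thus not shown to be particular to general capillary cells. Angptl4, an inhibitor of lipoprotein lipase, was at 23.1 and 12.2 CPM in GAL, against 9.78 and 10.1 CPM in WT (0.86 ± 0.37 log2, edgeR unadjusted p = 0.0444). Of 14 tested genes of capillary lipid uptake, 7 had a positive difference, 5 were higher in both GAL libraries and 1 was lower in both, with a median of 0.18 log2 that was -0.04 log2 without GAL replicate 1 and -0.05 log2 after thinning. Cd36 was at 904 and 1151 CPM in GAL and 964 and 1130 CPM in WT, and its groups overlapped. Of 15 genes of cholesterol synthesis, 12 had a positive difference with a median of 0.10 log2, and 3 of them were higher in both GAL libraries.

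Among ligands, Vegfa was at 199 and 159 CPM in GAL, against 320 and 333 CPM in WT. The groups did not overlap, and the difference was -0.86 ± 0.20 log2 (edgeR adjusted p = 0.650). It was detected in 43.4% and 37.2% of GAL members and in 49.0% and 56.3% of WT members, against 6.84% and 3.68% of GAL T cells and 4.63% and 6.13% of WT T cells. In aerocytes Vegfa was at 76.3 and 85.1 CPM in GAL against 74.3 and 23.6 CPM in WT, and the change of general capillary cells minus that of aerocytes was -1.64 ± 0.43 log2 (edgeR adjusted p = 0.901). The aerocyte levels rest on few cells, as Vegfa was detected in 12.1% and 7.55% of GAL aerocytes and 14.4% and 6.52% of WT aerocytes. The receptor Kdr was at 157 and 260 CPM in GAL and 288 and 249 CPM in WT, with overlap. Dll1 was at 74.9 and 59.9 CPM in GAL, against 116 and 102 CPM in WT (-0.69 ± 0.21 log2, edgeR adjusted p = 0.899). Of 10 Notch genes tested, 3 had a positive difference, 4 were lower in both GAL libraries and 0 higher in both. Angpt1, the activating ligand of TEK that pericytes and fibroblasts produce, was at 40.6 and 25.3 CPM in GAL, against 11.6 and 18.5 CPM in WT (1.12 ± 0.32 log2, edgeR adjusted p = 0.803). Id1, a target of BMP signalling, was at 172 and 220 CPM in GAL, against 259 and 295 CPM in WT (-0.50 ± 0.21 log2, edgeR unadjusted p = 0.0347), and Bmp6 was at 178 and 251 CPM in GAL and 214 and 211 CPM in WT, with overlap.

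Chrm2 and Slc6a2, which belong to none of the pathway lists, were among the genes with the smallest p. Chrm2, the M2 muscarinic acetylcholine receptor, was at 32.7 and 35.0 CPM in GAL, against 11.6 and 11.8 CPM in WT (1.53 ± 0.25 log2, edgeR adjusted p = 0.368). Slc6a2, the noradrenaline transporter and one of the genes used to mark venous cells, was at 136 and 142 CPM in GAL, against 68.4 and 68.0 CPM in WT (1.02 ± 0.19 log2, edgeR adjusted p = 0.507). Slc6a2 was held by few cells, 7.54% and 7.64% of GAL members and 5.26% and 5.67% of WT members. It was also richer in members near the threshold, at 265 and 389 CPM in GAL and 114 and 118 CPM in WT among cells with exactly 3 of the 6 genes, and with at least 4 genes required its difference was 0.66 log2. In the vascular tone list, Ptgs1 was at 142 and 151 CPM in GAL, against 83.1 and 74.3 CPM in WT (0.89 ± 0.19 log2, edgeR adjusted p = 0.647). Ptgis, the prostacyclin synthase, was at 75.4 and 51.5 CPM in GAL, against 45.2 and 39.5 CPM in WT (0.60 ± 0.24 log2, edgeR unadjusted p = 0.0321). Edn1 was at 228 and 318 CPM in GAL and 266 and 233 CPM in WT, with overlap. Of 17 vascular tone genes tested, 9 had a positive difference, 4 were higher in both GAL libraries and 3 were lower in both.

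Of the remaining genes with the smallest p, Atp8a1, a phospholipid flippase, was at 187 and 184 CPM in GAL, against 96.5 and 93.2 CPM in WT (0.97 ± 0.19 log2, edgeR adjusted p = 0.515). Mxd4, a MAX partner that opposes MYC, was at 552 and 489 CPM in GAL, against 274 and 270.5 CPM in WT (0.94 ± 0.19 log2, edgeR adjusted p = 0.566). On the lower side, Nfya, a subunit of the CCAAT-binding factor NF-Y, was at 35.7 and 37.1 CPM in GAL, against 80.04 and 55.9 CPM in WT (-0.89 ± 0.23 log2, edgeR adjusted p = 0.677). Eef1e1, a scaffold of the aminoacyl-tRNA synthetase complex, was at 12.3 and 18.99 CPM in GAL, against 27.5 and 37.4 CPM in WT. The paired leukocyte inhibitory receptor genes Lilrb4a and Lilr4b, which are near copies of each other and may share reads, were both lower: Lilrb4a was at 18.8 and 19.4 CPM in GAL against 41.5 and 34.0 CPM in WT. The transcription factors Tbx3 and Sox17 had differences of -0.52 ± 0.22 and -0.42 ± 0.21 log2, and of 20 endothelial transcription factors 5 had a positive difference, 7 were lower in both GAL libraries and 1 was higher in both.

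**Figure D4:**
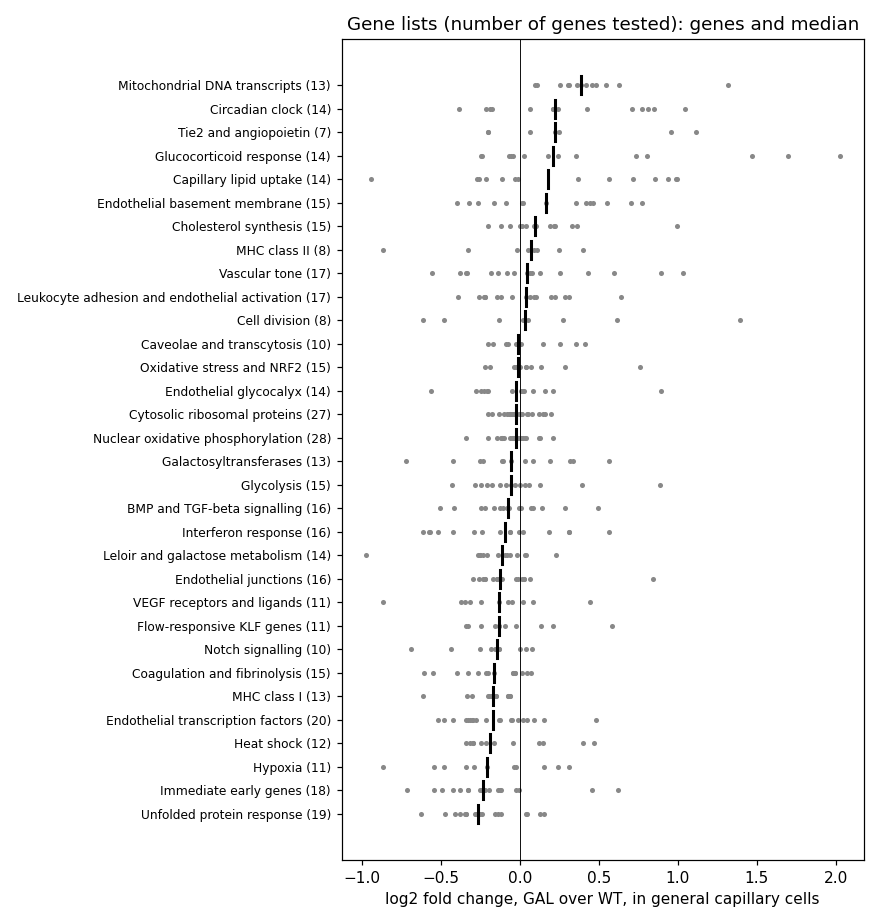
Log2 fold change of GAL over WT in general capillary cells for the members of each of the 32 biology lists (grey points) and their median (black bar), with the number of genes tested in brackets and a line at 0. Mitochondrial DNA transcripts, with 13 of 13 members positive, stand at the higher end, and the unfolded protein response, with 4 of 19 positive, at the lower end.

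No member of the mitochondrial, MHC, unfolded protein response or immediate early lists passed. All 13 transcripts of mitochondrial DNA had a positive difference and 11 were higher in both GAL libraries, with a median of 0.39 log2. mt-Nd3, a complex I subunit, was at 305 and 245 CPM in GAL, against 152 and 71.0 CPM in WT (1.32 ± 0.32 log2, edgeR adjusted p = 0.650), and mt-Co3, a complex IV subunit, was at 3254 and 3204 CPM in GAL, against 2248 and 1935 CPM in WT (0.63 ± 0.20 log2, edgeR adjusted p = 0.929). The mitochondrial share of UMIs per cell, 2.59% and 2.71% in GAL members and 2.09% and 2.03% in WT members, was part of the filter on kept cells and was also higher in GAL over all kept cells, at 2.30% and 2.25% against 1.82% and 1.78% in WT. In the other kept cells mt-Nd3 was at 240 and 200 CPM in GAL, against 110 and 54.0 CPM in WT. The nuclear genes of oxidative phosphorylation did not lean the same way, with 8 of 28 positive and a median of -0.03 log2. Of 13 MHC class I genes 0 had a positive difference, 4 were lower in both GAL libraries and the median was -0.17 log2. Ciita, the MHC class II transactivator, was at 32.1 and 25.7 CPM in GAL, against 71.5 and 36.5 CPM in WT (-0.87 ± 0.31 log2, edgeR unadjusted p = 0.0198), while of the 8 MHC class II genes, with Ciita among them, 5 had a positive difference, 0 were higher in both GAL libraries, 1 was lower in both and the median was 0.07 log2. Of 19 genes of the unfolded protein response 4 had a positive difference, 9 were lower in both GAL libraries and the median was -0.27 log2. Of 18 immediate early genes 2 had a positive difference, 2 were higher and 3 lower in both GAL libraries, near the background, and the median of -0.23 log2 turned to 0.13 log2 without GAL replicate 2.

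Marker RNA of some other cell types differed between the groups. The 8 fibroblast markers summed to 1855.5 and 1685 CPM in GAL members, against 1055 and 1073 CPM in WT members, and all 8 were higher in both GAL libraries. Mfap4, a microfibril-associated protein of fibroblasts and smooth muscle and one of these markers, was at 329 and 234 CPM in GAL, against 87.4 and 132 CPM in WT (1.36 ± 0.26 log2, edgeR adjusted p = 0.515, and called by DESeq2). In aerocytes Mfap4 was at 180.2 and 116 CPM in GAL against 37.2 and 33.1 CPM in WT, and in all other kept cells at 381 and 167 CPM in GAL against 77.3 and 97.0 CPM in WT. The 7 markers of interstitial macrophages and monocytes summed to 433 and 297 CPM in GAL, against 210 and 262 CPM in WT, and of the 4 tested 4 had a positive difference and 3 were higher in both GAL libraries. The 8 markers of pericytes and smooth muscle summed to 128 and 96.6 CPM in GAL, against 236 and 131 CPM in WT, with 3 of 6 tested positive. The 7 alveolar type 2 markers summed to 7131 and 25.8 CPM in GAL members and to 1400 and 394 CPM in WT members, so that GAL replicate 1 alone was high. Lymphatic markers were at 410 and 60.9 CPM in GAL and 50.7 and 59.9 CPM in WT, again with GAL replicate 1 high. T cell markers were low throughout, at 37.2 and 33.5 CPM in GAL and 30.2 and 38.2 CPM in WT. No marker of the fibroblast or T cell list was at 0 in any library. The part of RNA of these cell types in the differences between GAL and WT was not tested.

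The 4 hemoglobin genes tested all had negative differences between GAL and WT. Hba-a2 was at 183 and 114 CPM in GAL, against 342 and 902 CPM in WT, and the groups did not overlap (-2.07 ± 0.41 log2, edgeR adjusted p = 0.535). Hba-a1 was at 285 and 173 CPM in GAL, against 503 and 1329 CPM in WT (-1.997 ± 0.41 log2). Without the cells of at least 50 hemoglobin UMIs, hemoglobin RNA came to 59.5 and 153 CPM in GAL and 99.5 and 290 CPM in WT, which overlap, and the differences were -0.99 log2 for Hba-a2 and -0.92 log2 for Hba-a1. In T cells without such cells it was at 29.9 and 35.4 CPM in GAL, against 46.8 and 128 CPM in WT, so WT replicate 2 was also the highest library in a cell type that should lack it.

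**Figure D5:**
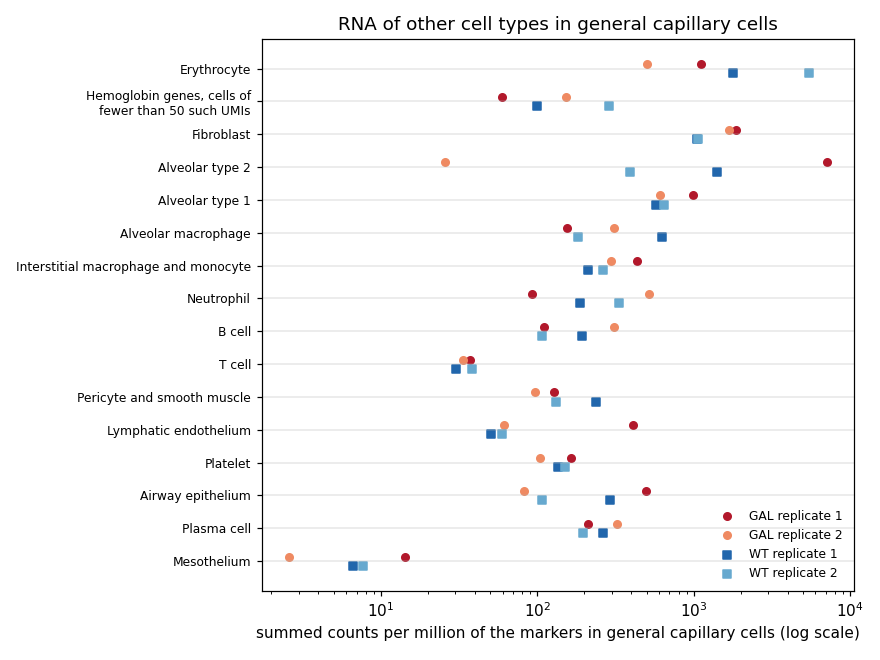
Summed CPM of marker genes of other cell types in general capillary cells, on a log axis, with GAL libraries as circles and WT libraries as squares. Fibroblast markers lie higher in both GAL libraries, alveolar type 2 and lymphatic markers are high in GAL replicate 1, and hemoglobin is shown with all cells and without those of at least 50 hemoglobin UMIs.

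Whether the difference between GAL and WT was itself different in general capillary cells was tested against aerocytes and against all other kept cells, over 9825 and 16869 genes. Against aerocytes 1 gene passed (0.0102%), Mgp, and against all other kept cells 2 genes passed (0.0119%), Ighg2c and Scgb3a2, as edgeR interactions. Mgp, the matrix Gla protein that inhibits calcification, was nearly level between the groups in general capillary cells, at 1867 and 1838 CPM in GAL and 1630 and 1647 CPM in WT, while aerocytes held 1561 and 1913 CPM in GAL against 537 and 338 CPM in WT. The change of general capillary cells minus that of aerocytes was -1.84 ± 0.22 log2 (edgeR adjusted p = 0.0132). After thinning to 1500 UMIs that value was 0.067 log2, with the highest doublet scores removed it was -1.03 log2, and neither passed, nor did it pass without WT replicate 2 (edgeR adjusted p = 0.157). Ighg2c and Scgb3a2 are an immunoglobulin gene of plasma cells and a secretoglobin of airway cells, and both were at higher levels in the other cells than in members. Scgb3a2 was at 7.24 and 0.382 CPM in GAL members and 23.6 and 5.81 CPM in WT members, and at 234 and 34.1 CPM in other GAL cells and 141 and 38.0 CPM in other WT cells. Within members the difference of Scgb3a2 between GAL and WT was -1.71 ± 0.82 log2, with overlap of the groups. Both calls were lost after thinning and with the highest doublet scores removed, that of Ighg2c also without WT replicate 1, where its sign turned (0.62 log2), and that of Scgb3a2 without WT replicate 1 and with DESeq2 (adjusted p = 0.0892 and 0.0798). None of Zbtb16, Lpl, Vegfa, Sult1a1, Fkbp5 or Chrm2 passed either test, and a p that misses the threshold does not show that the change was alike in the other cells.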

How the data were processed

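Each library was deposited as a matrix of whole-number UMI counts for 32285 genes, and the authors' processing is known here only as fastp, STAR and Seurat and the mouse build GRCm38, per the submitters' processing notes. Deposited counts of a library were read as they stand, and cells with at least 300 genes and at most 20% mitochondrial UMIs were kept. General capillary cells, aerocytes (at least 3 of their 4 genes), arterial and venous cells were selected by detected genes, and T cells by at least 2 of Cd3d, Cd3e, Cd3g and Trac. The members, gene lists and tests were chosen with earlier results of these data known.

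UMIs were summed per library and class, since cells are not replicates. Genes were filtered with filterByExpr, scaled by TMM and tested with edgeR 4.0.16 (R 4.3.3) by the quasi-likelihood test with Benjamini-Hochberg adjustment over all genes tested, at an adjusted p under 0.05. The SE of a log2 difference is its size divided by the square root of F. Levels are TMM-scaled CPM of the fit concerned, so the same gene differs slightly between fits, while levels of selecting genes, marker sums and cells near the threshold are plain CPM. The 32 genes of all selections were left out of fits between classes. Arterial and venous cells were not tested, because GAL replicate 2 held fewer than 30 of either. Genes were named by a fixed rule: those called, filled up to 10 per direction by p among genes of at least 20 CPM without overlap, up to 4 per list by p, and members with a described role. Some genes this rule takes are not reported here. For the class comparison the rule took the 10 largest folds per direction with the same direction in all 4 libraries.

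Shares of cells were compared by an exact permutation test over libraries. Doublets were left in and, as an alternative, cells with the highest Scrublet scores (scanpy 1.11.5) were removed at 0.8% per 1000 cells. Other alternatives were DESeq2 1.42.0, its size factors, no filter on low counts, leaving out each library, at most 10% mitochondrial UMIs, thinning to 1500 UMIs, at least 4 selecting genes, and 0 UMIs of aerocyte and pericyte genes. Removing cells of at least 50 hemoglobin UMIs was added after the data were seen. The fits were tested on simulated data. Droplet counting does not separate near-identical genes, and the number of libraries, 2 per group, limits the precision.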

Additional observations from a re-analysis of the deposited data

Results flagged for a closer look

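Mgp was picked out because its change between GAL and WT differed between general capillary cells and aerocytes by -1.84 log2 in the interaction test. Mgp was detected in 63.9% and 33.6% of GAL members and 29.9% and 32.5% of WT members, and in T cells in 56.5% and 27.4% of GAL cells and 24.04% and 25.3% of WT cells, so GAL replicate 1 was high in both. The GAL aerocytes also held 6758 and 11104 CPM of alveolar type 2 markers, against 93.4 and 91.4 CPM in WT aerocytes, and their part was not tested.

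Ighg2c was picked out because its change differed from that of all other kept cells by -3.73 log2. Members held 0.250 and 15.7 CPM in GAL and 35.9 and 0 CPM in WT, and the other cells held 19.4 and 669 CPM in GAL and 120 and 0.2998 CPM in WT, so the groups overlapped in both. Scgb3a2 was picked out in the same test with a difference of -2.52 log2, and its level in members was at most 23.6 CPM, in WT replicate 1.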

How the results depend on the processing

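Between GAL and WT, 0 genes passed. Without the filter on low counts 142 passed, with DESeq2 2 and with 0 UMIs of aerocyte and pericyte genes 1, which was Ccl4. Leaving out a library gave 12 to 309 genes, with 171 without GAL replicate 1, 309 without GAL replicate 2, 24 without WT replicate 1 and 12 without WT replicate 2, and the lone library of its group is then assumed to vary like the other group. The other settings gave 0. Over all alternatives Zbtb16 ranged from 1.5 to 1.86 log2 and Lpl from 0.83 to 1.08 log2, and Vegfa from -1.05 to -0.72 log2. Of the 32 list medians, 14 moved by more than the spread between libraries without GAL replicate 1 and 9 without GAL replicate 2, and over all alternatives 48 of 416 medians did. Against aerocytes, 2462 genes passed, 1619 after thinning to 1500 UMIs and 1706 with DESeq2. Leaving out a library gave 1652 to 2848, and 1904 passed with no library term. The interaction with aerocytes passed for 1 gene, for 46 without the filter, 4 after thinning and 0 with the highest doublet scores removed, and for 0 to 195 without a library (0 without WT replicate 2). Without a library Cd74 ranged from -0.49 to 0.93 log2 and Mki67 from -0.35 to 2.06 log2 between GAL and WT. In the interaction Mgp was 0.067 log2 after thinning. The interaction with all other cells passed for 2 genes, for 32 without the filter, 1 with DESeq2, 4 after thinning, 3 with at most 10% mitochondrial UMIs and 0 with the highest doublet scores removed, and for 8 to 642 without a library. Ighg2c then ranged from -4.44 to 0.62 log2, turned without WT replicate 1. Scgb3a2 was 0.35 log2 after thinning. Without the cells of at least 50 hemoglobin UMIs, the interactions of Hba-a2 and Hba-a1 were 0.28 and 0.20 log2. The share difference was 2.27 percentage points and ranged from 1.15 to 3.39 without a library, and was 0.692 with 0 UMIs of aerocyte and pericyte genes. The cause of each move was not tested. No paired analysis was possible because the labels give no pairs between GAL and WT libraries, whose replicate numbers are in order of deposit.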

Other observations

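The circadian and cell division lists were outside the comparisons above. Of 14 clock genes tested, 10 had a positive difference between GAL and WT general capillary cells, and 5 were higher in both GAL libraries, among them Nr1d1, the repressor REV-ERB alpha, at 47.1 and 114 CPM in GAL and 40.3 and 37.0 CPM in WT. Mki67, a marker of dividing cells, was detected in 1.22% and 1.44% of GAL members and 0.822% and 1.03% of WT members, below the 4.79% and 8.94% of GAL T cells and 11.2% and 4.51% of WT T cells.

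Cd74, the MHC class II invariant chain, was detected in 96.1% and 77.4% of GAL members and 88.0% and 78.7% of WT members, and in 49.3% and 59.2% of GAL T cells and 52.8% and 44.4% of WT T cells. Its level was 2427 and 907 CPM in GAL and 1516 and 1018 CPM in WT general capillary cells, and 570 and 1932 CPM in GAL and 514 and 205 CPM in WT aerocytes, so the order of the classes was reversed in GAL replicate 2.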
